A study of Mus musculus with 12 samples.

Results

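Steady-state mature miRNA levels were compared on 4 arrays of untreated mouse embryonic fibroblasts, 2 from ATF6bKO cells and 2 from ATF6bWT cells. The miRNAs described are the 159 mouse miRNAs, of 611 on the array, that the scanner software scored as detected on both arrays of at least 1 genotype. Of these, 133 were detected on all 4 arrays. The full study holds 12 one-colour Agilent arrays in 6 groups of 2, adding both genotypes after 12 h and 24 h of 2 ug/mL tunicamycin, a drug that blocks N-linked glycosylation and thereby stresses the endoplasmic reticulum. The labels give C57BL/6 as the background strain of all cells. Each group's 2 arrays are from independent experiments, but the labels do not say how many embryos or cell lines stand behind each genotype. A difference between lines and a difference between genotypes therefore cannot be told apart. The p-values measure only the spread between arrays, which the fit estimated from all 12 together.

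ATF6b is a membrane-anchored transcription factor of the endoplasmic reticulum and a relative of ATF6a. When unfolded proteins build up, both travel to the Golgi, are cut by proteases, and release a fragment that enters the nucleus and acts on genes of the unfolded protein response. A miRNA is a short RNA that guides a silencing complex to messenger RNAs, chiefly by pairing of its seed, the bases just after its 5′ end. miRNAs that share a seed form a family with overlapping targets, and many are cut from shared primary transcripts as clusters. Untreated cells show which miRNAs differ between the genotypes before any drug is given.

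The sequences below are those of the miRNAs on which the results turn, taken from RefSeq on build GRCm38.p6, with the seed (bases 2 to 8) in capitals. They are shown because members of 1 seed family moved together in several cases and apart in one. The first 5 are the 3 miRNAs that were higher in knockout cells, each followed by a family member where one was measured:
miR-99a: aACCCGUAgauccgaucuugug
miR-100: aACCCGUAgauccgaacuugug
miR-148a: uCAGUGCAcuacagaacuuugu
miR-152: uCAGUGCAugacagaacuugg
miR-155: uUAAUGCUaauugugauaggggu
The next 7, from the miR-17 clusters, were all lower in knockout cells and fall under 4 seeds:
miR-20a: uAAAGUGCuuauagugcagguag
miR-20b: cAAAGUGCucauagugcagguag
miR-106b: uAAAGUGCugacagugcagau
miR-18a: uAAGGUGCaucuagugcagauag
miR-19a: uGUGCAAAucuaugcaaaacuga
miR-19b: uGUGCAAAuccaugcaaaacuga
miR-92a: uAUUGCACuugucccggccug
The last 7 belong to the other miRNAs that were lower, with miR-222 given beside its seed partner miR-221:
miR-29a: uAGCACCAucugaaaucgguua
miR-29b: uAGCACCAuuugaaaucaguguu
miR-221: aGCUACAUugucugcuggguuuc
miR-222: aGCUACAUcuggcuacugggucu
miR-224: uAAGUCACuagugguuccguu
miR-196a: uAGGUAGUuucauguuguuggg
miR-10a: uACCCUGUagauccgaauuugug
Some of these are nearly the same molecule. miR-99a and miR-100 differ at 1 of 22 bases, miR-19a and miR-19b at 1 of 23, and miR-20a and miR-20b at 2 of 23, so probes for such pairs could share signal.

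Levels are log2 values of the background-subtracted intensity, scaled so that 0 is the array's own 75th percentile, taken over 93 miRNAs that all 12 arrays detected. A floor lies at -5.71, and values at the floor have no order. A miRNA is described as called, or as having risen or fallen, where the Benjamini-Hochberg adjusted p of the limma fit over 176 tested miRNAs was under 0.05. Differences are knockout minus wild type on the log2 scale, ± the standard error of the fit.

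The 4 arrays lay on 1 slide, wild type in its first row and knockout in its second, so slide row and genotype cannot be told apart. The arrays detected 159 to 172 mouse miRNAs each, and their scaling signal ran from 539 to 623 intensity units. Each replicate number was 1 scan of that slide holding both genotypes. Wild-type replicate 1 had 5.05% of its spots marked as outliers, against 2.12% to 2.45% on the other 3. The labelling spike-in was below the software's accepted range on all 4. Fibroblast identity was checked with 18 marker miRNAs on the array, of which 15 or 16 were detected on each of the 4 arrays. Markers of epithelial cells, blood, and endothelium and liver had 0 detected. The genotype labels were not checked, since ATF6b is a protein-coding gene with no probe here.

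Between the genotypes, 20 miRNAs were called, all of them among the 159: 3 were higher in knockout cells and 17 lower. Over all 176 tested miRNAs that is 11.4% in either direction, 1.7% higher and 9.66% lower. Most miRNAs differed little: 119 of the 159 lay within 0.5 of no difference, and the median difference was -0.06, against -0.03 over all tested. Of the 17 that differed by at least 1, 12 were called. The size of the call set rests on how the arrays were made comparable. It was 33 with the scan as a block and 3 with quantile normalization. It was 0 where scaling ran over all mouse miRNAs or was left out, with normexp background correction, or on the deposited log2 values. Leaving out any 1 array also made it smaller, in a fit with a single array left in 1 group. Rises, and no longer falls, were the more numerous among the calls without knockout replicate 2 or without wild-type replicate 1. Across the tested miRNAs the differences then had medians of 0 and 0.01. They had medians of -0.14 without knockout replicate 1 and -0.15 without wild-type replicate 2.

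miR-99a showed the largest rise. This miRNA, reported to restrain mTOR signalling, is encoded at chr16:77598940-77598961 on the plus strand. Its level was -4.06 and -4.27 on the wild-type arrays and -2.63 and -2.70 on the knockout arrays. The genotypes did not overlap, and the knockout arrays lay closer to each other than to any wild-type array. The difference was 1.5 ± 0.12 (adjusted p = 0.00036, n = 2 per group), and both of its probes showed it. That standard error pools all groups, including treated wild type, which sat at the floor without spread, so it can be too small. With the untreated arrays alone the limma adjusted p was 0.0289, and 0.071 with the replicate block added. Its seed partners were not called: miR-100, at 1 base from miR-99a, differed by -0.20 ± 0.13 (adjusted p = 0.467), and miR-99b by -0.32 ± 0.27 (adjusted p = 0.611). let-7c, looked up after these values were seen because 1 of its gene copies neighbours miR-99a, differed by 0.01 ± 0.13 (adjusted p = 1).

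miR-148a, a liver-rich miRNA reported to target a DNA methyltransferase, rose from -4.74 and -5.03 in wild type to -3.76 and -3.77 in knockout cells. That is a difference of 1.12 ± 0.17 (adjusted p = 0.0053), without overlap and with both probes apart. Its level is dim, and its direction was not the same in every summary. With the scanner software's total signal in place of the probe sum the difference was -1.24, and on the deposited values, which are the log2 of that total, it was -1.01. miR-152 has the same seed and read -3.47 and -3.88 in wild type against -2.92 and -3.07 in knockout cells. These also did not overlap, but the difference of 0.68 ± 0.28 was not called (adjusted p = 0.196).

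miR-155, best known from activated immune cells, was at -2.57 and -2.63 in wild type and -1.79 and -1.76 in knockout cells. The difference of 0.83 ± 0.11 (adjusted p = 0.00477) was many times the gap between arrays of 1 genotype. Both of its probes were apart in the same direction.

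**Figure D1:**
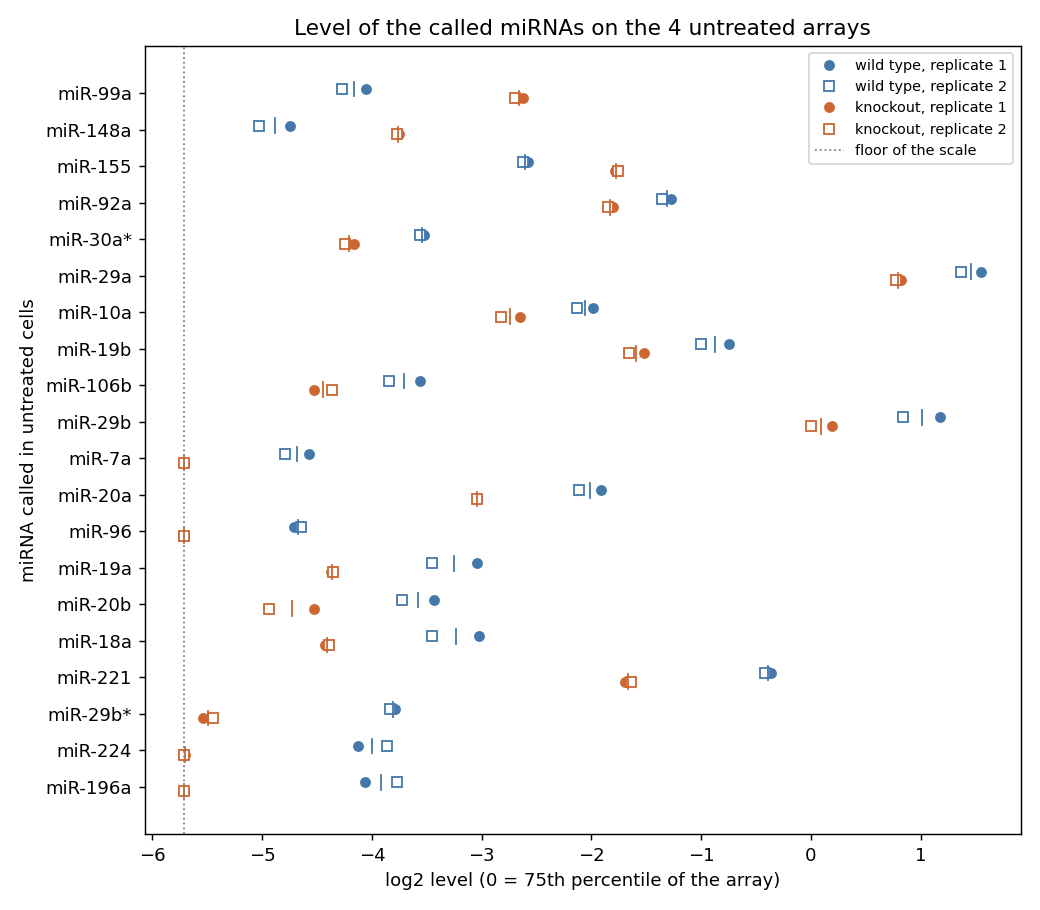
Log2 level (horizontal axis, 0 = 75th percentile of the array) of the 20 called miRNAs on each of the 4 untreated arrays, with wild type in blue and knockout in orange. Filled circles are replicate 1, open squares replicate 2, short vertical lines group means and the dotted line the floor at -5.71. In every row the 2 colours stand apart, with 3 miRNAs to the right in knockout cells and 17 to the left, and miR-7a, miR-96, miR-224 and miR-196a at the floor or next to it in knockout cells.

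The miR-17 clusters gave 7 of the 17 falls. They are 3 related transcripts, the miR-17 cluster on chromosome 14, the miR-106a cluster on X and the miR-106b cluster on chromosome 5, and their miRNAs promote cell cycle progression and survival. Of 9 measured members, 7 were called lower and 0 higher, where 9.66% of all tested miRNAs were called lower. All 9 were lower in knockout cells without overlap, where 30.1% of all tested miRNAs were. Their median difference was -1.03, against -0.03 over all tested miRNAs. Not called were miR-93, at -1.07 ± 0.35 (adjusted p = 0.1), and miR-25, at -0.42 ± 0.14 (adjusted p = 0.107).

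miR-20a gave the lowest adjusted p among the miRNAs that fell. It read -1.91 and -2.12 in wild type and -3.04 on both knockout arrays, a difference of -1.03 ± 0.11 (adjusted p = 0.00217). miR-20b carries the same seed and is cut from the X-linked cluster at chrX:52742159-52742181, minus strand. It went from -3.43 and -3.72 to -4.52 and -4.93, a difference of -1.15 ± 0.20 (adjusted p = 0.0102). For miR-20b too the sign depended on the summary, since the software's total signal gave 0.79 and the deposited values 1.03. miR-106b, also of this seed, is encoded at chr5:138165787-138165807 on the minus strand. It fell by 0.74 on the log2 scale (SE 0.17, adjusted p = 0.0297), though only part of its probes were apart.

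The other seeds of the clusters moved the same way. miR-18a read -3.02 and -3.45 in wild type and -4.43 and -4.39 in knockout cells, a difference of -1.17 ± 0.23 (adjusted p = 0.0144). miR-19a was at -3.04 and -3.46 against -4.37 and -4.35, a difference of -1.11 ± 0.19 (adjusted p = 0.00898). For both, the knockout arrays nearly coincided and the wild-type arrays spread more. miR-19b, 1 base away from miR-19a and far brighter, fell by 0.72 (SE 0.14), from -0.75 and -1.0 to -1.52 and -1.66. miR-92a had the smallest difference of any called miRNA, -0.52 ± 0.13 (adjusted p = 0.0362), with levels of -1.27 and -1.35 against -1.81 and -1.85. As for miR-106b, only part of its probes were apart. The mature miR-17 itself was not detected on any of the 12 arrays. Its opposite strand, miR-17*, was measured and differed by -0.75, with arrays apart but no call (adjusted p = 0.233).

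The miR-29 family, whose seed pairs with messages for collagens and other matrix proteins, is among the brighter families in these fibroblasts. Of its 3 members 2 fell and 0 rose, and all 3 were lower without overlap, where 9.66% and 30.1% of all tested miRNAs did so. The median difference was -0.66. miR-29b was at 1.18 and 0.84 in wild type and 0.19 and 0.00 in knockout cells, a difference of -0.92 ± 0.22 (adjusted p = 0.0345). miR-29a stood at 1.55 and 1.37 against 0.82 and 0.77, a difference of -0.66 ± 0.12 (adjusted p = 0.0126). The third member, miR-29c, shares all but 1 base with miR-29a, and its -0.31 ± 0.17 was not called (adjusted p = 0.354). The passenger strand miR-29b* fell further, from -3.79 and -3.84 to -5.54 and -5.45, which is -1.68 ± 0.32 (adjusted p = 0.0142). It was detected on 1 of the 2 knockout arrays and its knockout values sat just above the floor. With the floor doubled its difference was -0.90 and was not called.

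miR-221 and miR-222 are cut from 1 X-linked transcript and share a seed that pairs with the message of the cell cycle inhibitor p27. miR-221 maps to chrX:19146307-19146329, minus strand. It was one of the brighter miRNAs, at -0.36 and -0.42 in wild type and -1.69 and -1.64 in knockout cells. The arrays of a genotype agreed to within 0.06, and the difference was -1.28 ± 0.21 (adjusted p = 0.00779). miR-222 was detected on both wild-type arrays and on neither knockout array. A bound on a fold compares the wild-type mean with the knockout arrays. On each knockout array it takes the highest of that array's lowest detected signal, the floor and the miRNA's own signal. For miR-222 this gave 2.15-fold, which is the fitted difference itself and no bound below it. The fitted -1.11 ± 0.50 was not called (adjusted p = 0.245), and the scan block gave 0.0249. With 1 untreated array left out the miR-222 difference ran from -1.57 to -0.64.

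Hox cluster miRNAs are embedded among the genes that pattern the body axis, and 2 of the 6 on the array were measured. Both fell, without overlap. Over all tested miRNAs 9.66% were called lower and 30.1% were lower without overlap. The list is small, and miR-196a counts as measured only through its wild-type arrays, which favours a lower level in knockout cells. miR-196a, encoded by 2 identical copies on chromosomes 11 and 15, was at -4.06 and -3.77 in wild type and at the floor on both knockout arrays, where it was undetected. It was at least 2.69-fold lower (fitted difference -1.79 ± 0.37, adjusted p = 0.017), although 1 of its probes overlapped between genotypes. With the floor doubled its difference was -0.79 and was not called. miR-10a, at chr11:96317186-96317208 on the plus strand near Hoxb4, went from -1.99 and -2.13 to -2.65 and -2.83. That is -0.68 ± 0.13 (adjusted p = 0.0144). Its partner miR-10b, at 1 base from miR-10a, was not detected on both arrays of either genotype.

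Altogether 8 miRNAs were detected on both wild-type arrays and on neither knockout array, and 0 showed the reverse. Beside miR-196a and miR-222 these include miR-224, which lies in an intron of the X-linked gene Gabre at chrX:72261085-72261105, minus strand. miR-224 read -4.13 and -3.87 in wild type and -5.70 and -5.71 in knockout cells. It was at least 2.55-fold lower (fitted -1.71 ± 0.22, adjusted p = 0.00393). miR-7a and miR-96, the first abundant in endocrine tissue and the second in sensory hair cells, were each at least 1.59-fold lower, with fitted differences of -1.03 ± 0.15 and -1.03 ± 0.25 (adjusted p = 0.0053 and 0.036). Like miR-196a, both sat on the floor in both knockout arrays, where the fit sees no spread, so their standard errors and p-values can be too small. The same caution holds for miR-224, whose knockout values of -5.70 and -5.71 lie at the floor or next to it. All 4 were, like miR-222, sorted here as detected in wild type only. Their lower level in knockout cells follows from that sorting and is no separate evidence for it. The hypoxia-induced miR-210 was at least 1.15-fold lower and was not called (adjusted p = 0.059). miR-362-3p and miR-28* differed by -0.15 ± 0.23 and -0.03 ± 0.09, so close to the limit of detection that no bound on the fold is given. With the software's total signal miR-28* was called, at -5.21 (adjusted p = 1.16e-06). Another 15 miRNAs were detected on both wild-type arrays and 1 knockout array, and 3 on both knockout arrays and 1 wild-type array. Of the 20 called, 15 were detected on all 4 arrays: 3 higher and 12 lower.

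The remaining called miRNA is miR-30a*, the passenger strand of miR-30a. It fell by 0.66 (SE 0.17, adjusted p = 0.0434), from -3.53 and -3.56 to -4.17 and -4.24. With the software's total signal its difference was 1.04, the opposite direction. The 5 principal strands of the miR-30 family, reported to restrain fibrosis, had a median of 0.25 and 0 calls, where 11.4% of all tested miRNAs were called.

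**Figure D2:**
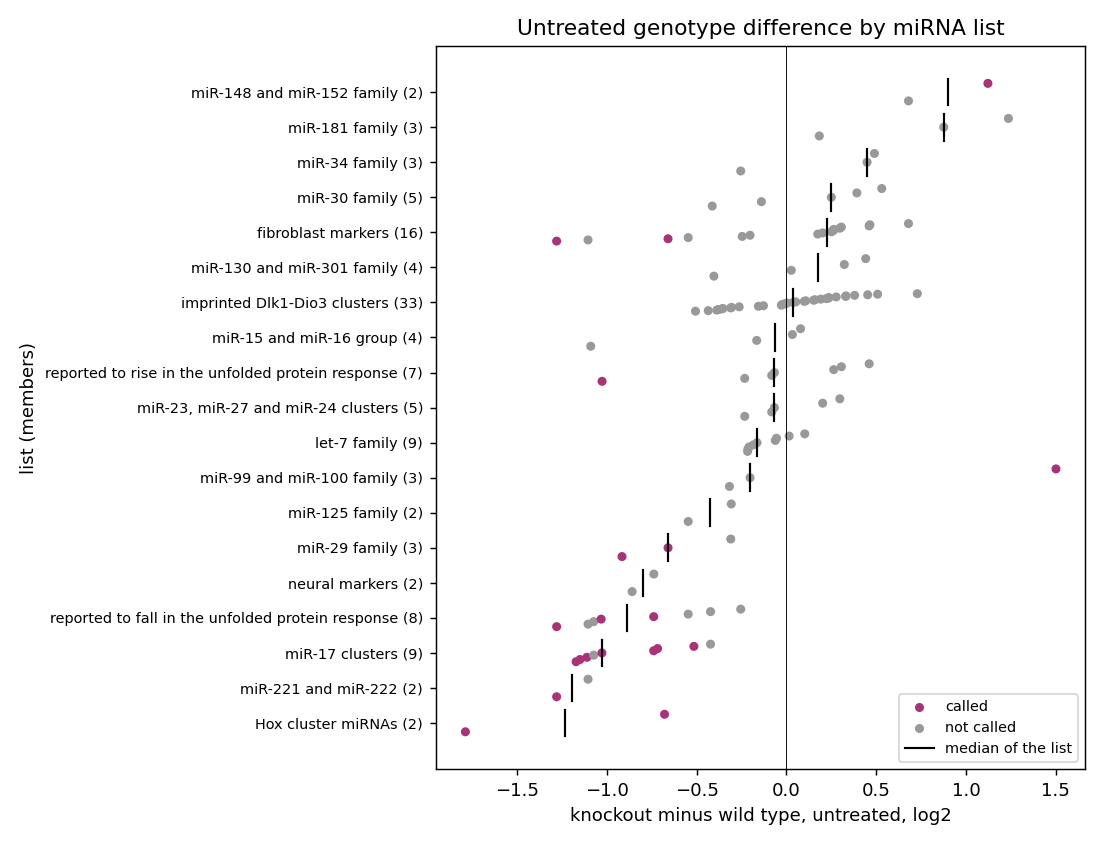
Knockout minus wild type in untreated cells (horizontal axis, log2) for the measured miRNAs of each list, whose number stands in brackets. Points are miRNAs, purple where called, and black lines are list medians. The miR-17 clusters, miR-29, miR-221 and miR-222, and Hox lists lie wholly left of 0, let-7 and the imprinted Dlk1-Dio3 clusters are centred near 0, and miR-99a stands alone on the far right of its family.

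Several other families had 0 calls, where 11.4% of all tested miRNAs were called. At that share 0 calls in a list of a few miRNAs does not set it apart. The 9 let-7 miRNAs, which hold back proliferation and mark differentiated cells, were all measured on all 4 arrays, with 0 calls and differences from -0.22 to 0.10. The imprinted Dlk1-Dio3 clusters on chromosome 12, expressed from the maternal chromosome, had 33 measured members and 0 calls. Their median was 0.04, their range -0.51 to 0.73, and 18 lay above 0, of which 13 did so in both scans. The clusters of miR-23 with miR-27 and miR-24 had 5 members, 0 calls and a range of -0.23 to 0.30. Among the 4 measured members of the miR-15 and miR-16 group, which slows the cell cycle, 0 were called. One of them, miR-322, differed by -1.09 ± 0.30 (adjusted p = 0.0552). Neither the miR-181 family nor the miR-130 and miR-301 family had a call. The 3 measured miR-181 miRNAs had a median of 0.88, but miR-181d, singled out after its values were seen, gave 2.10 in one scan and 0.37 in the other.

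Lists drawn from reports on the unfolded protein response addressed whether untreated knockout cells already differ in miRNAs that others have tied to that response. Of 8 measured miRNAs reported to fall during the response, 3 were called lower, 0 higher, and all 8 were lower without overlap, with a median of -0.89. Over all tested miRNAs 9.66% were called lower and 30.1% were lower without overlap. The 3 are miR-221, miR-96 and miR-106b, and the list shares miRNAs with the miR-17 and miR-221 lists. Of 7 measured miRNAs reported to rise, 1 was called lower (miR-7a), 0 higher, and the median was -0.07. miR-214 differed by 0.46 ± 0.23 (adjusted p = 0.29), miR-199a-3p by 0.26 ± 0.13 (adjusted p = 0.286) and miR-27a by -0.23 ± 0.14 (adjusted p = 0.429). These lists mix reports from several tissues, and their names describe those reports.

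Fibroblast markers lay on both sides of 0. Of 16 measured, 2 were called lower (miR-221 and miR-29a) and 0 higher, and the median was 0.23, with 6 higher and 6 lower without overlap. Over all tested miRNAs 9.66% were called lower, and 17% were higher and 30.1% lower without overlap. Their summed signal was 6449% and 5429% of the 75th percentile in wild type and 5598% and 5078% in knockout cells. In bulk RNA, fewer cells of a type and less RNA per cell cannot be told apart. Of 10 neural markers on the array, 2 were detected, both strands of miR-129, and their summed signal was 27.0% and 20.5% of the 75th percentile in wild type against 15.3% and 11.0% in knockout cells. Of 7 muscle markers only miR-206 was detected, on 1 array of each genotype. Of 16 pluripotency markers 3 were detected on knockout replicate 1, with a summed signal of 53.5% of the 75th percentile, against 0 or 1 and 7.79% to 17.1% on the other 3 arrays. The part of these cells in the results above was not tested.

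The genotype difference could be read separately in each scan, replicate 1 with replicate 1 and replicate 2 with replicate 2. Over the 159 miRNAs the 2 differences had the same sign for 124 and correlated at 0.786 (across miRNAs, which are not independent replicates). They differed from each other by a median of 0.16. The genotypes did not overlap for 80 of the 159, 29 with knockout higher and 51 lower, where 17% and 30.1% of all tested miRNAs did the same. Ranked by mean level, the 53 dimmest miRNAs had a median standard error of 0.33 and made 9 of the 20 calls, and the 53 brightest had 0.17 and made 5.

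**Figure D3:**
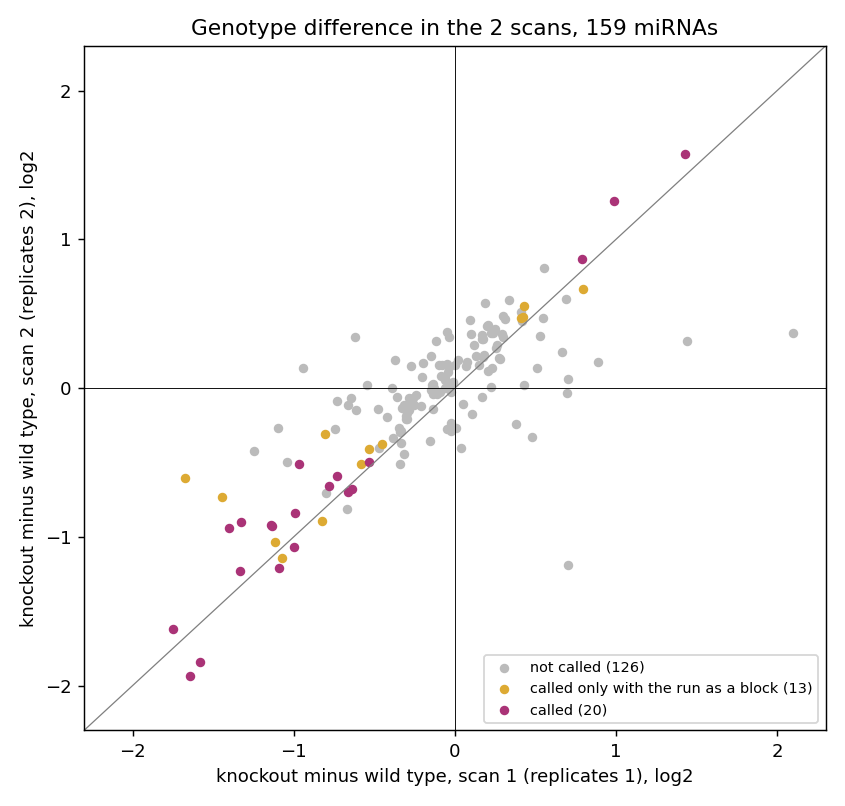
Knockout minus wild type (log2) in scan 1 (horizontal axis) against scan 2 (vertical axis) for 159 miRNAs, with the diagonal marking equal differences. The 20 called miRNAs (purple) and the 13 called only with the scan as a block (yellow) have the same sign in both scans, and most uncalled miRNAs (grey) gather near 0.

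Arrays of the same scan deviated from their group means together, with a correlation of 0.48 between the untreated genotypes. With the scan as a block all 20 calls were kept and 13 were added, 4 higher and 9 lower. Over all tested miRNAs that fit called 18.8%, 3.98% higher and 14.8% lower. Among those added, miR-34c, a p53 target, was higher by 0.49 ± 0.11 (adjusted p = 0.0249), and miR-337-3p of the Dlk1-Dio3 region by 0.73 ± 0.15 (adjusted p = 0.0174). Lower were miR-322 by -1.09 ± 0.18 (adjusted p = 0.00672), miR-93 by -1.07 ± 0.20 (adjusted p = 0.0129), and miR-129-5p by -0.86 ± 0.20 (adjusted p = 0.0255). Also lower were miR-125b-5p, a highly abundant fibroblast miRNA, by -0.55 ± 0.13 (adjusted p = 0.0332), and miR-28 by -0.47 ± 0.12 (adjusted p = 0.0336). miR-222, miR-210 and miR-362-5p completed the 10 with the lowest p, with adjusted p of 0.0249, 0.0336 and 0.0336.

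Gene position was compared after these values were seen and is given as a description. RefSeq placed 140 of the 159 miRNAs, 117 at 1 locus and 23 at several. All 11 miRNAs encoded only on X were lower in knockout cells, 9 of them without overlap, and 3 were called lower (27.3% of the 11): miR-224, miR-221 and miR-20b. Their median was -1.09. Over all tested miRNAs 30.1% were lower without overlap and 9.66% were called lower. Among the 106 encoded at 1 autosomal locus the median was -0.01, with 8 called lower and 3 higher. Of these 106, 29 were lower and 23 higher without overlap.

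The X-linked miRNAs come from several places and did not all move by the same amount. miR-362-5p, at -1.14 ± 0.43 (adjusted p = 0.156), and miR-322, at -1.09, lie far from miR-221 and miR-224, though miR-322 lies closer to miR-20b. The other strand of the miR-362 hairpin, miR-362-3p, differed by only -0.15 ± 0.23. By contrast, miR-98 differed by -0.21 ± 0.20, miR-652 by -0.25 ± 0.30, miR-361 by -0.06 ± 0.17 and miR-500 by -0.06 ± 0.23. In treated cells the median of the 11 was -0.18 and 7 of them lay below 0.

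Of 7 miRNAs on chromosome 16, 2 were called higher, miR-99a and miR-155, and 4 were higher without overlap, with a median of 0.38. Over all tested miRNAs these shares were 1.7% and 17%. Of 5 on chromosome 14, 3 fell, all from the miR-17 cluster, where 9.66% of all tested miRNAs fell. miR-15a on the same chromosome differed by 0.08. The Atf6b gene itself lies on chromosome 17 at 34647146 to 34655074. The 3 measured miRNAs of that chromosome, the cluster of miR-99b, let-7e and miR-125a-5p, had differences of -0.32, -0.22 and -0.31 and 0 calls.

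**Figure D4:**
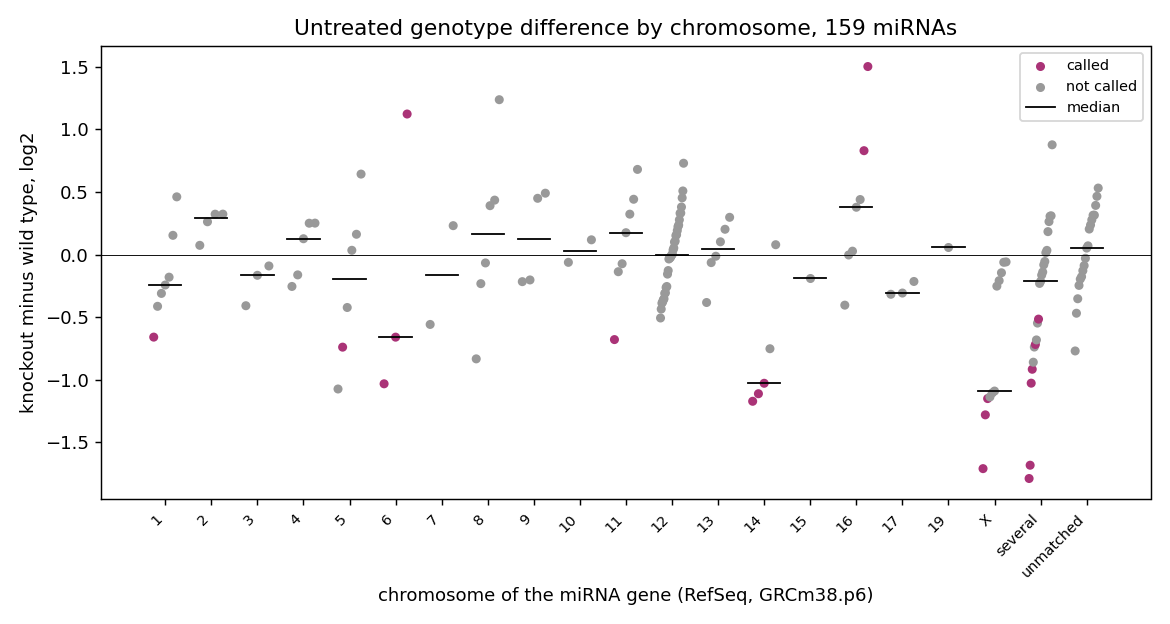
Knockout minus wild type in untreated cells (vertical axis, log2) for 159 miRNAs by the chromosome of their gene (horizontal axis), with several for miRNAs of more than 1 locus. Purple points are called and black lines are medians. All 11 points of X lie below 0 and split into a group near -1 or lower and a group between -0.25 and -0.06, and miR-99a and miR-155 top chromosome 16.

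The 8 arrays of tunicamycin-treated cells carry the same genotype labels on another slide. Wild type again lay in its first row and knockout in its second, so slide row and genotype cannot be told apart there either. The labelling spike-in was within the accepted range on all 8, unlike on the untreated arrays. Treatment and slide cannot be told apart, and marker miRNAs also moved between the slides. Of 8 epithelial markers on the array, 0 were detected on the untreated arrays of either genotype and 0 on the 4 treated wild-type arrays, but 3 to 5 on the 4 treated knockout arrays. Their summed signal was 265% to 384% of the 75th percentile in treated knockout cells, against 0.0311% to 0.949% in treated wild type and at most 1.88% on the untreated arrays. miR-200c, an epithelial miRNA, read between 0.52 and 1.2 on the treated knockout arrays and miR-141 between -0.65 and -0.16. Both were at the floor on the other 8 arrays. Fibroblast markers were detected at 13 to 15 of 18 in treated wild type and 15 to 16 in treated knockout cells.

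miR-31, an abundant fibroblast miRNA singled out after its values were seen, moved in the wild-type cells. It stood at -1.48 and -1.72 in untreated wild type and at -1.31 and -1.40 in untreated knockout cells, a difference of 0.25 ± 0.20 (adjusted p = 0.548). It was at the floor and undetected on all 4 treated wild-type arrays, and between -1.79 and -1.24 on the treated knockout arrays. The labels do not say whether the cells of both slides come from the same lines. The part of the epithelial markers and of miR-31 in the treated genotype differences was not tested.

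On the treated arrays, averaged over 12 h and 24 h, 83 of 176 miRNAs were called (47.2%): 62 higher in knockout cells (35.2%) and 21 lower (11.9%). Quantile normalization gave 29 higher and 25 lower, scaling over all mouse miRNAs 15 and 11, and no scaling 11 and 16. Of the 20 miRNAs called in untreated cells 9 were called the same way, which is 45% of them and 11.8% of the 76 of the 159 miRNAs called under treatment. One, miR-96, was called the other way, and 10 were not called.

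All 3 miRNAs that rose were called at 12 h and at 24 h. miR-99a read between -2.44 and -2.19 on the treated knockout arrays and sat at the floor on all 4 treated wild-type arrays, although the software scored it as detected there on 1 of 2 at each time. Its fitted difference of 3.37 is therefore set in part by the floor, and its standard error, taken with a group of no spread, can be too small. miR-155 differed by 1.46 ± 0.08 (adjusted p = 4.28e-06) and miR-148a by 0.91 ± 0.12 (adjusted p = 0.000469). The increase of the difference was itself called for miR-155, by 0.63 ± 0.14, and for miR-99a, where its size of 1.87 depends on the floor in the same way.

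Of the 17 miRNAs that fell, the same call was made under treatment for 6: miR-224 (-1.33 ± 0.16), miR-92a (-0.72 ± 0.09), miR-221 (-0.57 ± 0.15), miR-18a (-0.47 ± 0.16), miR-19b (-0.47 ± 0.10) and miR-29a (-0.34 ± 0.09). For 8 of 17 the negative genotype difference was significantly smaller or opposite under treatment. That is, the change of the difference was called and positive, as for 26.7% of all tested miRNAs. The 17 were chosen by a negative difference on the same untreated arrays that enter the change. This choice favours a positive change in advance. Over all tested miRNAs a negative change was called for 2.84%, and either for 29.5%. That split of 47 positive and 5 negative calls became 9 and 2 after quantile normalization. It was 5 and 0 where all mouse miRNAs set the scale, and 4 and 0 with no scaling. The median change of the difference over all tested miRNAs was 0.37, against -0.27 with no scaling and -0.42 over the 93 miRNAs tested on the deposited values. Within the miR-17 clusters miR-20a went from -1.03 to -0.20 ± 0.08 and miR-19a from -1.11 to 0.02 ± 0.13. miR-106b and miR-10a had differences of 0.14 ± 0.12 and 0.21 ± 0.09 in treated cells. miR-96 was higher by 0.75 ± 0.18 in treated knockout cells (adjusted p = 0.00865). miR-29b*, miR-7a and miR-20b complete the 8. For miR-96 and miR-7a the size of the change depends on the floor, where their untreated knockout arrays lie.

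**Figure D5:**
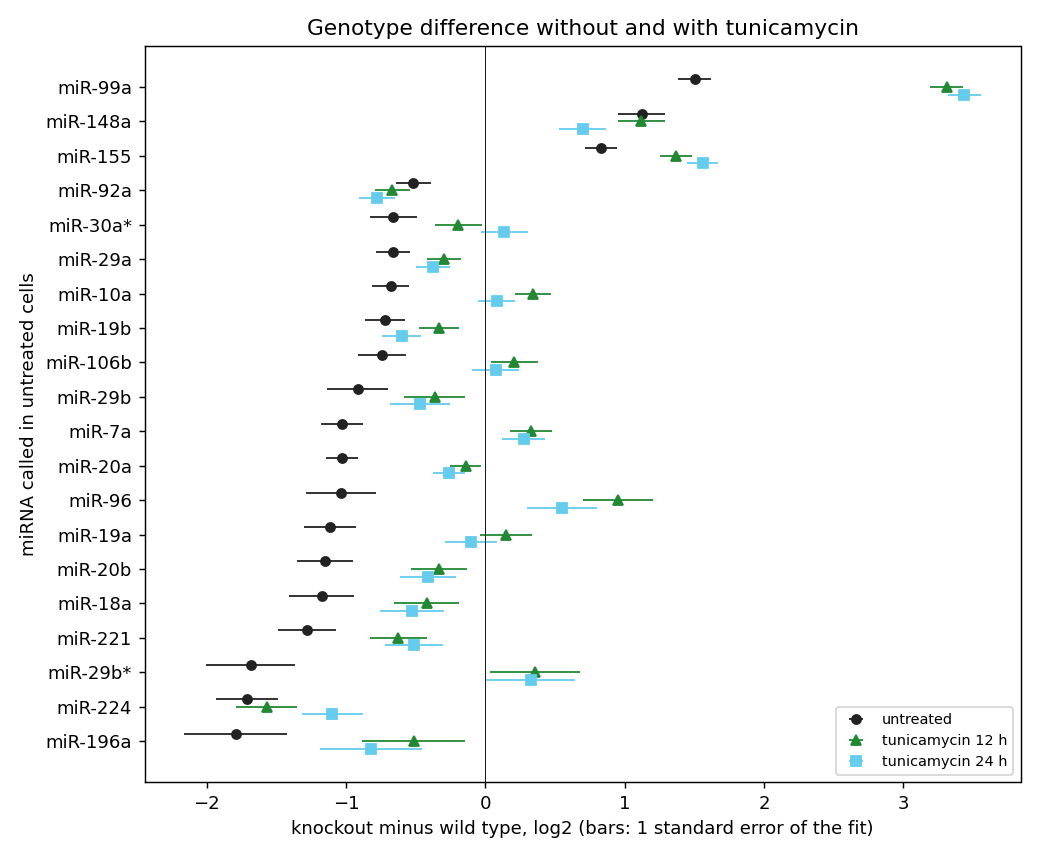
Knockout minus wild type (horizontal axis, log2) for the 20 miRNAs called in untreated cells, in untreated cells (black circles) and after 12 h (green triangles) and 24 h (blue squares) of tunicamycin. Bars are 1 standard error of the fit, with 2 arrays per group. miR-99a and miR-155 lie further right under treatment, miR-224, miR-221 and miR-92a stay left of 0, and miR-96, miR-7a and miR-29b* cross from left to right.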

How the data were processed

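Mature miRNAs were measured on 12 one-colour (Cy3) Agilent miRNA arrays. The authors deposited scanner tables of linear spot intensity. Per the file headers, images were read with version 10.7.1.1 of Agilent Feature Extraction. The deposited series table holds log2 values, which match the log2 total gene signal of the scanner tables within 1.18e-06. It leaves undetected miRNAs empty and carries no scaling between arrays.

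Here control spots and spots marked as outliers were dropped, background-subtracted intensity was averaged per probe and summed per miRNA. Sums were divided by the array's 75th percentile over 93 miRNAs detected on all 12 arrays, floored at 0.0191 and log2 transformed. A fit of 6 group means in limma 3.58.1 (R 4.3.3, 6 residual and 1.65 prior degrees of freedom) covered the 176 mouse miRNAs that any group detected on both its arrays, with Benjamini-Hochberg adjustment. The fit was tested on simulated data. Replicate numbers mark the scan within a slide, per the file headers. Deviations of same-numbered arrays correlated at 0.48 between untreated groups and 0.76 to 0.91 between treated ones, so a fit with the scan as a block was also run. Precision is limited by 2 arrays per group.

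Named miRNAs are all called ones, those detected in 1 genotype only, up to 4 per list with a called member and up to 10 called only with the scan block. The members and lists were chosen with earlier results of these data known. Array names were matched to RefSeq arms by hand. Other scalings, floors, filters, background correction and left-out arrays were tried.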

Additional observations from a re-analysis of the deposited data

Results flagged for a closer look

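For 14 named miRNAs the genotype difference under tunicamycin was significantly unlike that in untreated cells, by the limma contrast of the 2 differences (treated minus untreated, log2). Among miRNAs higher in untreated knockout cells it was 1.87 for miR-99a and 0.634 for miR-155, and both differences grew. The value of miR-99a depends on the floor, where all 4 of its treated wild-type arrays lie. Among those lower it was 0.826 for miR-20a, 1.33 for miR-7a, 1.13 for miR-19a, 0.78 for miR-20b, 2.03 for miR-29b*, 0.89 for miR-10a, 0.882 for miR-106b and 1.79 for miR-96. Among named miRNAs that were not called in untreated cells it was 0.911 for miR-28, 1.17 for miR-152, 0.627 for miR-199a-3p and -1.16 for miR-322, the last becoming lower still in treated knockout cells. Many of these miRNAs were named because of their untreated difference, which also enters this contrast. Treatment and slide cannot be told apart in these values.

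Of 39 viral miRNA entries on the array, 3 were detected on knockout replicate 1 and 1 on each of the other 3 untreated arrays. That 1 entry was the same on all 4. Knockout replicate 1 is also the array with 3 pluripotency markers detected.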

How the results depend on the processing

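In untreated cells 20 miRNAs were called. The scan as a block gave 33, the replicate block over all 12 arrays 37 (10 higher, 27 lower), and both kept all 20. Untreated arrays alone gave 10 without the replicate block and 0 with it (59 at an unadjusted p under 0.05). The count was 3 with quantile normalization (0 higher, 3 lower: miR-196a, miR-20a and miR-19b), 3 with the software's total signal (1 higher, 2 lower) and 12 with no detection filter. It was 0 with scaling over all mouse miRNAs, no scaling, normexp and the deposited log2 values (limma, 15, 6, 1 and 4 at an unadjusted p under 0.05). The median difference moved from -0.03 to -0.13 with quantile normalization, -0.17 with scaling over all mouse miRNAs and 0.22 on the deposited values. Leaving out 1 array gave 7 to 17. The other 6 alternatives, 1 of them (outlier-marked spots kept, 24) chosen after seeing the data, gave 18 to 26. Doubling the floor gave 23 calls, 6 higher and 17 lower, of which 16 were among the 20. The calls it lost had knockout values at or near the floor: miR-96 (-0.03), miR-7a (-0.07), miR-196a (-0.79) and miR-29b* (-0.90). Of the called miRNAs, reversals were limited to miR-148a (-1.24 with the software's total signal, -1.01 on the deposited values), miR-20b (0.79 and 1.03) and miR-30a* (1.04 with the software's total signal), and the cause was not tested. Under tunicamycin, against 83 calls, the counts were 54 with quantile normalization, 26 with scaling over all mouse miRNAs, 27 with no scaling, 0 with normexp, 31 with the software's total signal, 0 on the deposited values and 55 for miRNAs detected on all 12 arrays, and leaving out 1 array gave 75 to 90. For the change of the difference, against 52, they were 11, 5, 4, 0, 10, 0 and 30 in that order, and leaving out 1 array gave 28 to 57. The scan and replicate blocks gave 119 and 105 under tunicamycin and 75 and 78 for the change of the difference. Normexp used median signals. Dim miRNAs lie near background, which limits their folds.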

Other observations

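Mature miR-17 was undetected on all 12 arrays, while miR-20a, miR-18a, miR-19a and miR-17* of the same primary transcript were detected on all 4 untreated arrays. miR-17 and miR-20a differ at 2 of 23 bases.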
